A study of Mus musculus with 20 samples.

Results

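In skin epithelium of p63 knockout (KO) mouse embryos at embryonic day 13 (E13), 51 genes stood higher than in heterozygous (Het) epidermis. The genes were compared with Het epidermis of the same age and of E9. They were chosen by level alone: in each of the 3 KO libraries a gene had to reach 10 CPM (a gene's read count scaled to the library's total count over genes), and its lowest KO library had to reach 2 times its highest library among 6 Het epidermal ones. Of 23432 gene symbols in the files, 8261 had at least 10 CPM in every KO library and 59 of these met the fold. Dropped by symbol were 8 of these, which left 51. The rule joins genes by level and not by function, so their high level in KO epidermis is how they were found and is described here without a test.

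RNA was sequenced from sorted cells of mouse back skin in 4 groups of 3 libraries. All animals carried the delta-Np63-GFP knock-in: it was heterozygous in E9 epidermis, E13 epidermis and E13 dermis, and made the animal a knockout in the remaining group, E13 KO epidermis. Epidermal cells were sorted by GFP and dermal cells by CD140a, the product of Pdgfra. No group is wild type at Trp63, and the epidermal sort collects cells in which the reporter is on. Whether replicates are separate animals is not said in the labels, so spreads and p-values describe these libraries and may be technical. In bulk RNA of sorted cells, fewer cells that express a gene and less RNA per cell cannot be told apart.

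p63, and mainly its delta-N form, is the transcription factor that commits the single-layered surface ectoderm of the early embryo to a stratified epidermis. At E9 the surface ectoderm is still a single layer, while at E13 the epidermis has begun to stratify. Without p63 the skin does not stratify and keeps features of a simple epithelium. By known role, 9 of the 51 genes encode proteases, glycan enzymes or secreted proteins, 7 adhesion and cell surface proteins, 7 intracellular signalling proteins, 6 ion channels or their partners, 6 cytoskeletal or transport proteins, 5 pumps, transporters or metabolic enzymes and 3 transcription factors or coregulators, while 8 were given no role.

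Trp63, the targeted gene, stood at 24.9, 27.4 and 23.4 CPM in KO, at 582, 636 and 477 CPM in E13 Het and at 303, 228 and 128 CPM in E9 epidermis. The depth of the epidermal libraries was 3373819 to 7777808 gene counts, and that of the dermal ones 16931664 to 33386872. E13 Het replicate 1, with 10765 genes detected, and KO replicate 3, with 11275, had the fewest genes of all. In E13 Het replicate 1, 21 of the 51 genes had no count, against 0 and 5 in the other two E13 Het libraries, and 3 counts there correspond to 0.759 CPM. Counts over the 51 genes and sums of marker lists that rest on these libraries are also given without both, a choice made after seeing the data.

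Summed over the 51 genes, KO libraries held 5445, 4819 and 5674 CPM, E13 Het libraries 1073, 1099 and 1319 CPM, and E9 libraries 733, 664 and 884 CPM. The lowest KO library was a median of 2.99 times the highest Het library, from 2.02 times for Hap1 to 39.2 times for Galntl6. For 16 genes this ratio was under 2.5, and for 10 it was at least 5. The higher of the 2 limits came from E13 Het epidermis for 40 genes and from E9 for 11. Just inside the fold limit lay Hap1 at 2.02, Rasgrp1 at 2.03 and Ntng1 at 2.05 times, and just outside it Adh1 at 1.98 and Amtn and Fam174b at 1.96 times. At the level limit, Galntl6, Hrc and Ppp3r2 lay inside with lowest KO values of 10.1, 10.3 and 10.4 CPM, and Calml4, Wbscr17 and Slc7a7 outside with 9.42, 9.27 and 8.98 CPM.

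**Figure D1:**
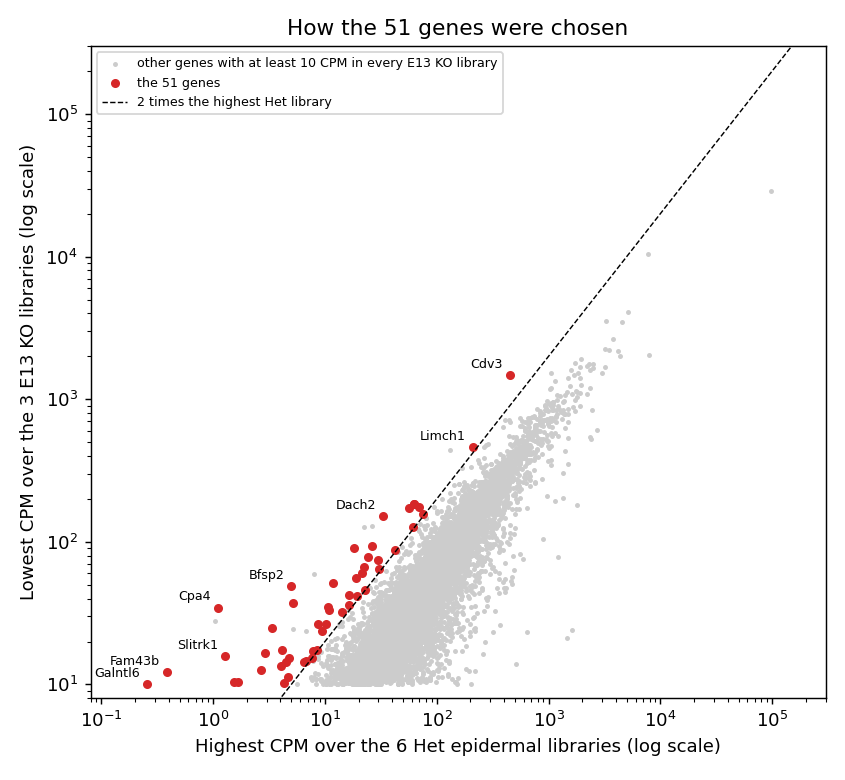
Each point is a gene with at least 10 CPM in every E13 KO library, placed by its highest CPM over the 6 Het epidermal libraries (x axis, log scale) and its lowest CPM over the 3 KO libraries (y axis, log scale). The 51 genes, in red, lie above the dashed line of 2 times the highest Het library, Galntl6 farthest from it at 39.2 times; 8 grey points above the line are the genes dropped by symbol.

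High in KO did not mean absent elsewhere. In E13 Het epidermis 17 of the 51 genes had at least 10 CPM in every library, and at E9 5 did. By contrast 24 stayed under 10 CPM, and 15 under 5 CPM, in all 6 Het libraries. Without E13 Het replicate 1, 20 had at least 10 CPM in both other E13 Het libraries, and 24 and 17 stayed under 10 and 5 CPM in the 5 remaining Het libraries. The KO libraries themselves spread by a median of 1.51 times between lowest and highest, close to the 1.47 times of the 8261 genes with at least 10 CPM in every KO library. For 8 genes the KO spread exceeded 2 times, with the widest, 4.47 times, in Fam135b. Without KO replicate 3 the median spread was 1.26 times, against 1.18, and 4 genes exceeded 2 times. KO replicate 3 was the highest KO library for 21 genes, replicate 1 for 18 and replicate 2 for 12, while among the 8261 genes replicate 3 was the highest for 43.6%, replicate 1 for 27.4% and replicate 2 for 29.0%.

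**Figure D2:**
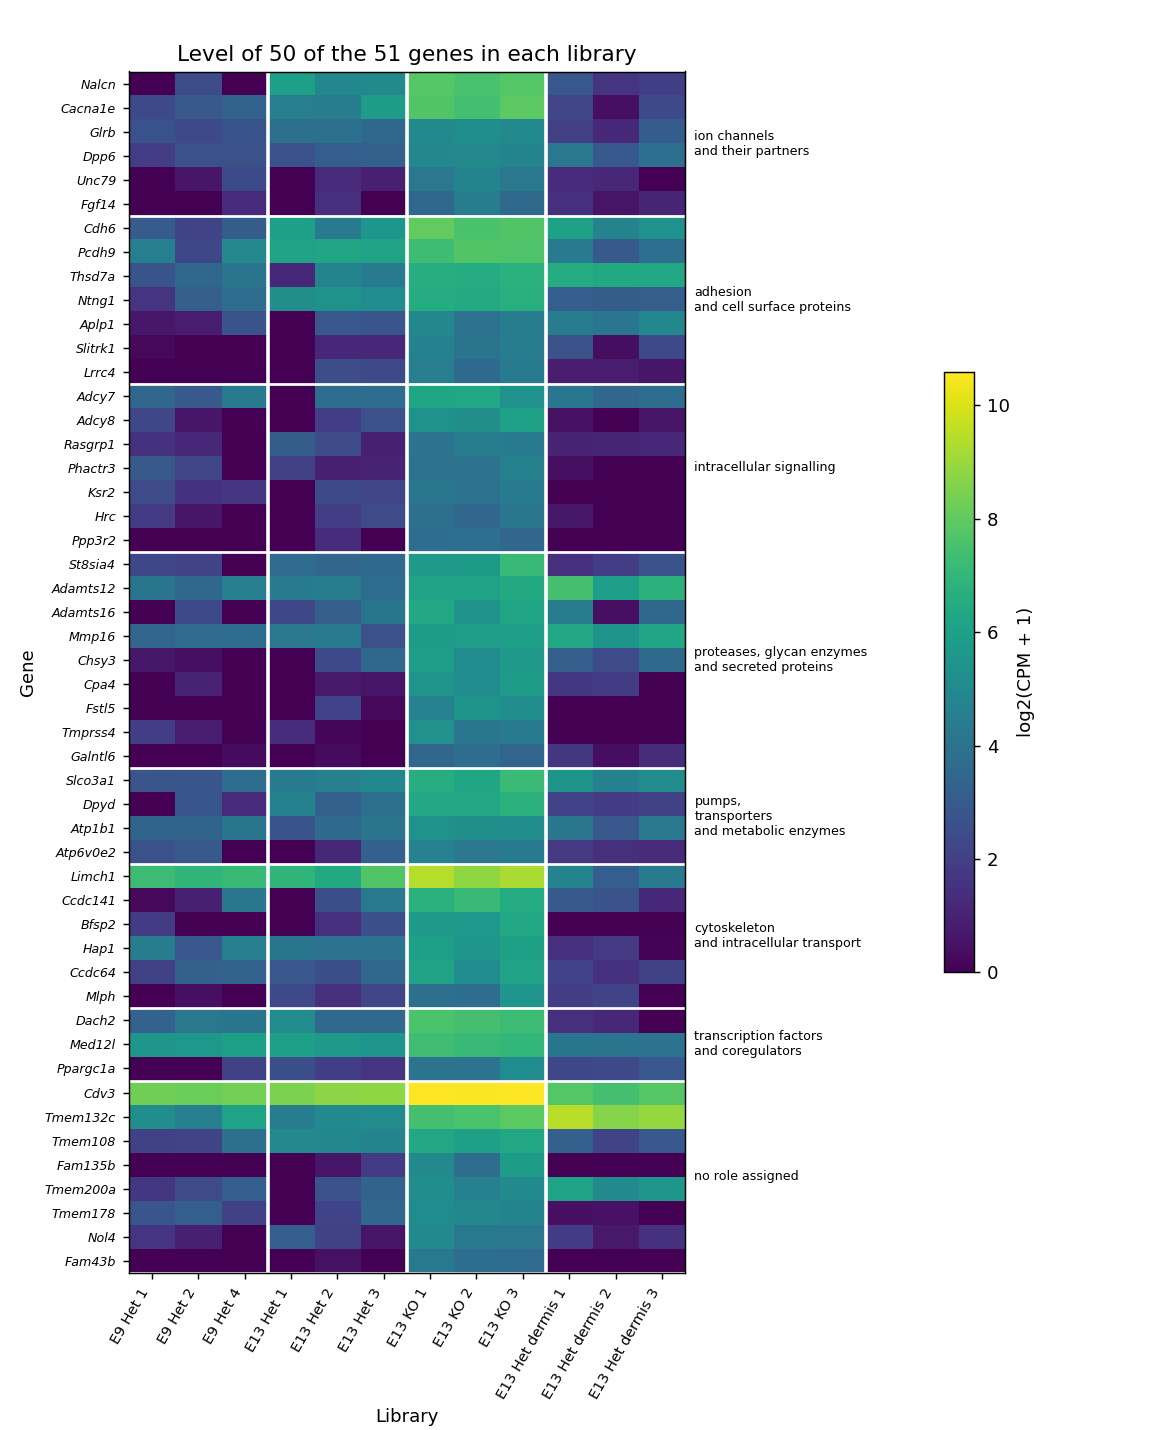
Heat map of 50 of the 51 genes (y axis, grouped by role) in the 12 libraries (x axis, 3 per group), coloured by log2(CPM + 1). The 3 KO columns are brighter than the 6 Het epidermal columns in every line, as the rule requires; dermal columns are bright for a few genes such as Tmem132c, at 702, 408 and 479 CPM.

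Ion channels and their partners accounted for 6 of the 51 genes. Nalcn (chr14:123275678-123627330, GRCm38.p6) encodes a sodium leak channel that helps set the resting potential of neurons. Its level was 227, 185 and 223 CPM in KO, 62.7, 30.0 and 32.0 CPM in E13 Het and 0, 4.42 and 0 CPM in E9 Het epidermis. All 3 E13 Het libraries lay between the E9 and the KO libraries. Unc79, a large auxiliary protein of the Nalcn channel, was at 17.5, 26.5 and 18.1 CPM in KO, 0, 1.41 and 0.895 CPM in E13 Het and 0, 0.552 and 4.13 CPM in E9 Het epidermis. Both subunits were thus counted in every KO library. Unc80, which bridges Unc79 to the channel, was at 0, 0.441 and 0 CPM in KO, and Fam155a, a further subunit, at 0, 0.294 and 0 CPM. These KO values amount to at most 3 counts in any library.

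Cacna1e (chr1:154390806-154884785) encodes the pore of R-type voltage-gated calcium channels. It was at 208, 173 and 239 CPM in KO, 22.3, 21.5 and 56.2 CPM in E13 Het and 4.01, 6.81 and 8.98 CPM in E9 Het epidermis. The lowest KO library was 3.08 times the highest Het library, E13 Het replicate 3. Glrb, the beta subunit that ties glycine receptors to their scaffold, was at 32.7, 37.5 and 32.3 CPM in KO, 14.2, 14.1 and 11.1 CPM in E13 Het and 5.40, 4.05 and 5.83 CPM in E9 Het epidermis. The ligand-binding subunits Glra1, Glra2, Glra3 and Glra4 had no count in any KO library. Gphn, the scaffold gephyrin, had means of 40.7 CPM in KO and 35.7 CPM in E13 Het epidermis, and its change did not pass the test. Dpp6, which speeds A-type potassium channels, was at 29.6, 30.9 and 26.7 CPM in KO, 5.31, 7.84 and 8.59 CPM in E13 Het and 2.78, 5.15 and 5.10 CPM in E9 Het epidermis. Kcnd2, the pore that Dpp6 serves in the brain, met the same numeric rule and was dropped by symbol; it was at 31.7, 37.4 and 24.6 CPM in KO and 0.759, 5.14 and 3.76 CPM in E13 Het. Fgf14, an intracellular relative of fibroblast growth factors that binds sodium channels, was at 10.5, 21.2 and 11.6 CPM in KO and under 2 CPM in every Het library.

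Adhesion and cell surface proteins numbered 7. Cdh6 (chr15:13028699-13176407), a classical cadherin of kidney and neural tissue, was at 261, 186 and 207 CPM in KO, 62.0, 19.3 and 46.7 CPM in E13 Het and 7.25, 3.50 and 7.77 CPM in E9 Het epidermis. E13 Het values lay above all E9 values and below all KO values. Pcdh9, a protocadherin, was at 157, 208 and 202 CPM in KO, 67.5, 74.7 and 69.4 CPM in E13 Het and 22.8, 3.86 and 30.3 CPM in E9 Het epidermis. Its lowest KO library was 2.10 times the highest Het library. Thsd7a, a membrane protein with thrombospondin repeats, was at 95.5, 93.6 and 106 CPM in KO, 1.26, 26.2 and 20.4 CPM in E13 Het and 5.71, 10.5 and 16.0 CPM in E9 Het epidermis. E13 Het replicate 1 was the low library of its group for this gene. Ntng1 encodes netrin-G1, a membrane-anchored relative of netrins that binds the synaptic protein Lrrc4c. It was at 94.0, 87.4 and 99.9 CPM in KO, 36.9, 42.6 and 34.7 CPM in E13 Het and 2.01, 8.28 and 12.6 CPM in E9 Het epidermis. The 3 groups did not overlap. The synaptic organizer Slitrk1 was at 24.2, 15.9 and 21.3 CPM in KO and at most 1.29 CPM in any Het library. Lrrc4, which binds netrin-G2, was at 22.2, 11.3 and 19.3 CPM in KO, 0, 4.63 and 4.12 CPM in E13 Het and 0 at E9. Aplp1, of the amyloid precursor family, was at 28.9, 14.3 and 21.6 CPM in KO and 0, 6.43 and 5.91 CPM in E13 Het. For both genes the 0 in E13 Het lay in replicate 1.

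Proteases, glycan enzymes and secreted proteins were the largest role, with 9 genes, and held Galntl6 and Cpa4, which with Fam43b had the 3 largest ratios of lowest KO to highest Het library. Cpa4 (chr6:30568369-30592418), a secreted carboxypeptidase, was at 44.3, 34.6 and 56.9 CPM in KO, 0, 0.643 and 0.537 CPM in E13 Het and 0, 1.10 and 0 CPM in E9 Het epidermis. The lowest KO library was 31.3 times the highest Het library. Galntl6 (chr8:57772489-58912531), a relative of the enzymes that start mucin-type O-glycans, was at 10.1, 12.8 and 10.1 CPM in KO, 0, 0.257 and 0 CPM in E13 Het and 0, 0 and 0.243 CPM in E9 Het epidermis. Its 3 KO libraries held 183 counts in all, against 2 counts in E13 Het and 1 count at E9, so the pooled ratio of 97.3 to E13 Het has a 95% counting interval from 26.6 to 809.6. Such intervals and bounds cover counting error only. Fstl5, a secreted follistatin-like protein, was at 25.0, 44.0 and 35.3 CPM in KO and 0, 3.34 and 0.179 CPM in E13 Het, with no count at E9. Against 3 counts over the E9 group, KO was at least 187-fold higher. Tmprss4, a serine protease anchored in the membrane, was at 39.6, 16.6 and 19.9 CPM in KO, 1.52, 0.129 and 0 CPM in E13 Het and 2.93, 0.736 and 0 CPM in E9 Het epidermis. KO replicate 1 was the high library.

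St8sia4, which builds polysialic acid on neural cell adhesion molecule, was at 51.2, 52.8 and 141 CPM in KO, 11.9, 10.2 and 11.8 CPM in E13 Het and 3.70, 3.50 and 0 CPM in E9 Het epidermis. KO replicate 3 stood apart from the other 2 KO libraries. Adamts12, a secreted metalloprotease, was at 66.7, 69.2 and 86.0 CPM in KO, 19.7, 21.7 and 12.3 CPM in E13 Het and 16.2, 10.7 and 22.3 CPM in E9 Het epidermis. Adamts16, of the same family, was at 77.2, 42.1 and 75.3 CPM in KO, 3.79, 8.10 and 16.5 CPM in E13 Het and 0, 4.23 and 0 CPM in E9 Het epidermis. Mmp16, a membrane-type matrix metalloprotease, was at 55.9, 59.4 and 57.8 CPM in KO, 17.5, 18.9 and 5.19 CPM in E13 Het and 9.88, 12.0 and 12.9 CPM in E9 Het epidermis. Its level was even across the KO libraries. Chsy3, a chondroitin sulphate synthase, was at 59.4, 33.1 and 51.9 CPM in KO and 0, 3.99 and 10.9 CPM in E13 Het.

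Transporters, pumps and metabolic enzymes gave 5 genes. Slco3a1, an organic anion transporter, was at 94.7, 74.7 and 146 CPM in KO, 20.5, 23.1 and 29.5 CPM in E13 Het and 5.86, 6.07 and 12.6 CPM in E9 Het epidermis. KO replicate 3 was its highest library, and the 3 groups were fully separate. Dpyd, the first enzyme of pyrimidine breakdown, was at 77.7, 79.6 and 109.7 CPM in KO, 24.0, 8.49 and 14.0 CPM in E13 Het and 0, 6.07 and 1.46 CPM in E9 Het epidermis. Atp1b1, a beta subunit of the sodium-potassium pump, was at 42.0, 37.7 and 35.9 CPM in KO, 5.82, 11.4 and 15.9 CPM in E13 Het and 9.57, 9.57 and 16.5 CPM in E9 Het epidermis. Atp6v0e2, a small subunit of the proton pump of acidic compartments, was at 24.9, 17.4 and 20.5 CPM in KO and 0, 1.29 and 8.41 CPM in E13 Het.

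Cytoskeletal and intracellular transport proteins numbered 6. Limch1 (chr5:66745889-67057159), a regulator of non-muscle myosin, was at 683, 461 and 604 CPM in KO, 122, 86.3 and 211 CPM in E13 Het and 151, 122 and 142 CPM in E9 Het epidermis. The KO mean of 583 ± 113 CPM (SD, n = 3) was 4.18 times the E13 Het mean of 139.5 ± 64.1 CPM. Hap1, the huntingtin-associated protein of vesicle transport, was at 64.6, 46.1 and 63.1 CPM in KO, 16.4, 14.8 and 15.2 CPM in E13 Het and 21.0, 6.26 and 22.8 CPM in E9 Het epidermis. Ccdc64, also called Bicdl1, an adaptor of dynein cargo, was at 67.1, 35.0 and 68.5 CPM in KO, 6.32, 4.89 and 10.7 CPM in E13 Het and 3.09, 8.46 and 8.98 CPM in E9 Het epidermis. KO replicate 2 was the low KO library for all 3 of these genes. Ccdc141, a coiled-coil protein, was at 108, 143 and 91.0 CPM in KO, 0, 4.89 and 18.3 CPM in E13 Het and 0.154, 0.920 and 16.8 CPM in E9 Het epidermis. Its E9 and E13 Het libraries spread from 0 or near 0 to above 16 CPM and overlapped each other. Mlph, melanophilin, links melanosomes to myosin Va in pigment cells. It was at 14.2, 13.4 and 45.3 CPM in KO, with replicate 3 apart, and 4.05, 1.67 and 3.58 CPM in E13 Het. Rab27a, which brings melanophilin to melanosomes, had means of 4.63 CPM in KO and 10.6 CPM in E13 Het and did not pass the test.

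Intracellular signalling gave 7 genes. Adcy7 and Adcy8 make cyclic AMP. Adcy7 was at 74.7, 78.0 and 41.8 CPM in KO, 0, 13.2 and 12.3 CPM in E13 Het and 10.3, 6.81 and 19.4 CPM in E9 Het epidermis. Adcy8 was at 41.5, 37.1 and 65.5 CPM in KO, 0, 2.96 and 5.19 CPM in E13 Het and 3.70, 0.552 and 0 CPM in E9 Het epidermis. The 0 in E13 Het was again replicate 1 in both. The remaining 5 had KO values from 10.3 to 24.0 CPM and stayed under 8 CPM in every Het library. They are Rasgrp1, which activates Ras, Ksr2, a scaffold of the Raf pathway, Phactr3, a regulator of protein phosphatase, Hrc, a calcium-binding protein of muscle, and Ppp3r2, a regulatory subunit of calcineurin. Ppp3r2 (chr4:49678747-49681983) lies inside Grin3a, a glutamate receptor gene that met the numeric rule and was dropped by symbol. Ppp3r2 was at 12.8, 13.7 and 10.4 CPM in KO and Grin3a at 169, 127 and 337 CPM. The strand setting of the counting is unknown here, so reads of the 2 genes may be shared.

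Transcription factors and coregulators made up 3 of the 51. Dach2 (chrX:113297496-113836386), a nuclear factor of the dachshund family, was at 189.7, 178 and 152 CPM in KO, 33.1, 11.6 and 11.8 CPM in E13 Het and 8.95, 17.7 and 16.3 CPM in E9 Het epidermis. KO values were 4.59 times or more the highest Het library. Med12l, a paralogue of a Mediator kinase-module subunit, was at 160.4, 140.2 and 128 CPM in KO, 61.2, 52.5 and 46.2 CPM in E13 Het and 47.7, 48.8 and 61.7 CPM in E9 Het epidermis. Its E9 and E13 Het libraries overlapped. Ppargc1a, the coactivator of mitochondrial genes also called PGC-1 alpha, was at 15.4, 15.6 and 35.0 CPM in KO and 4.81, 2.96 and 2.15 CPM in E13 Het. Of their listed partners, Eya1, Eya4, Cdk8, Cdk19, Ccnc, Esrra, Nrf1 and Tfam did not pass the test between KO and E13 Het epidermis.

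No role was assigned to 8 genes. Tmem132c, a membrane protein, was at 176, 190.2 and 241 CPM in KO, 21.8, 31.5 and 33.3 CPM in E13 Het and 36.0, 23.0 and 68.7 CPM in E9 Het epidermis. Fam135b was at 31.2, 12.7 and 56.6 CPM in KO, 0, 0.514 and 2.68 CPM in E13 Het and 0 in every E9 library. It was the least even gene across the KO libraries. Tmem200a was at 36.0, 23.8 and 32.0 CPM and Tmem178 at 34.5, 30.2 and 26.7 CPM in KO. Nol4 was at 31.2, 18.2 and 17.2 CPM in KO, with replicate 1 the highest. Fam43b was at 18.5, 13.4 and 12.2 CPM in KO, against 3 counts in all E13 Het libraries and none at E9. Its pooled ratio to E13 Het was 86.9, with a 95% counting interval from 29.4 to 424. Cdv3 and Tmem108 are described next.

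3 of the 51 genes are neighbours on chromosome 9, all on the minus strand. They are Cdv3 (chr9:103353102-103365835), Bfsp2 (chr9:103424924-103480405) and Tmem108 (chr9:103482936-103761900), with gaps of 59.1 kb and 2.53 kb between them. Cdv3 encodes a conserved protein of little known function. It was at 1527, 1470.0 and 1540.1 CPM in KO, 357, 435 and 448 CPM in E13 Het and 312, 294 and 331 CPM in E9 Het epidermis. The KO mean of 1512 ± 37.2 CPM (SD, n = 3) was 3.66 times the E13 Het mean of 413 ± 48.8 CPM. Bfsp2 encodes phakinin, a beaded-filament protein of the lens. It was at 50.4, 48.7 and 78.2 CPM in KO, 0, 1.80 and 5.01 CPM in E13 Het and 2.62, 0 and 0 CPM in E9 Het epidermis. Bfsp1, its filament partner in the lens, was at 0.327, 1.91 and 0 CPM in KO. Tmem108, a membrane protein studied in neurons, was at 80.0, 64.6 and 80.3 CPM in KO, 30.6, 29.6 and 25.9 CPM in E13 Het and 3.24, 3.50 and 14.1 CPM in E9 Het epidermis. The next gene beyond Cdv3, Topbp1, was at 320.2, 299.7 and 349 CPM in KO and 359.5, 374 and 337 CPM in E13 Het, so the 2 groups overlapped there. Srprb, farther along, was at 28.5, 35.6 and 7.71 CPM in KO and 16.4, 35.5 and 36.7 CPM in E13 Het, also overlapping.

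Promoter sequence is printed for Cdv3 and Tmem108, the outer 2 of these neighbours, and for Cpa4 and Dach2, whose lowest KO libraries were 31.3 and 4.59 times the highest Het library. It comes from RefSeq (GRCm38.p6) and holds up to 250 bases before a start, without bases inside the annotated gene. Sequences run 5′ to 3′ on the gene's strand, with letters of the AP-1, TEAD and TATA box motifs in capitals. They are chr9:103365836-103366030 on the minus strand for Cdv3, chr9:103761901-103762087 (minus) for Tmem108, chr6:30568119-30568368 (plus) for Cpa4 and chrX:113297260-113297495 (plus) for Dach2.
Cdv3: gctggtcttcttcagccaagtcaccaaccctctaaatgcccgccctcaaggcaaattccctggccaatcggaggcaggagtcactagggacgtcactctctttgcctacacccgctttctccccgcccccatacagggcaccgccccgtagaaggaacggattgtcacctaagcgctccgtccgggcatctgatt
Tmem108: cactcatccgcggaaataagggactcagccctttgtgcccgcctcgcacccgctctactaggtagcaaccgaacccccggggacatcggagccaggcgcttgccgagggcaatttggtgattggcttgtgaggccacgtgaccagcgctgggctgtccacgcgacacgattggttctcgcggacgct
Cpa4: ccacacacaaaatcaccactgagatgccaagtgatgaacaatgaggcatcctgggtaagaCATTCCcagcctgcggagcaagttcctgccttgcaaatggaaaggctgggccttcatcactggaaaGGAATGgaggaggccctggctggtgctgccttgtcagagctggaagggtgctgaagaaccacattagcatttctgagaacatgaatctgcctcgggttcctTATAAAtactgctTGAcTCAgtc
Dach2: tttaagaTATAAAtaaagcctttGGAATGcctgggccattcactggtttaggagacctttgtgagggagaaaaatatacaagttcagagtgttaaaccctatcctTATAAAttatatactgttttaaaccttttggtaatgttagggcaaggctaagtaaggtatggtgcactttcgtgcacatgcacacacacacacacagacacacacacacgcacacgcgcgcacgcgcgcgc
In Cpa4 the capitals mark, in order, GGAATG on the minus strand, GGAATG on the plus strand (both the TEAD letters), TATAAA (the TATA box letters) and the AP-1 letters TGANTCA, with N any base. In Dach2 they mark the TATA box letters at 2 places and the TEAD letters between them. The Cdv3 and Tmem108 stretches show no capitals and hold 11 and 18 CpG in 195 and 187 bases, while those of Cpa4 and Dach2 hold 2 and 9 in 250 and 236 bases.

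Promoter windows of 300 bases (250 before and 50 after a start) were at hand for 40 of the 51 genes, 53 windows in all. Searched on both strands, the loose paired core of p53-family sites, which fixes a C and a G at set places in each of 2 copies, matched 84.9% of these windows, 85.5% of windows of genes with at least 10 CPM in every KO library and 70.2% of all 32851. The stricter paired core, with CATG in each copy, matched 1 window, that of Med12l, which is 1.89%, against 0.199% and 0.712%. TGANTCA matched 3 windows (5.66%, against 4.41% and 7.81%), GGAATG 7 (13.2%, against 11.6% and 14.7%) and TATAAA 8 (15.1%, against 6.55% and 13.6%). Every strict match is also a loose one, so these shares overlap. CpG-rich windows, with over 50% G and C and an observed to expected CpG ratio over 0.6, made up 39.6% of the windows of the 51 genes, 72.7% of those of the expressed genes and 33.3% of all. A match is a description of letters and says nothing of binding, since no chromatin data were analysed here.

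Most of the 51 genes span long stretches of the genome. By RefSeq all are protein coding, and they sit on 18 chromosomes. Their median span was 219.5 kb, against 28.6 kb for 8172 protein-coding genes with at least 10 CPM in every KO library. Spans above 100 kb were found for 30 of them (58.8%), against 15.4%, and spans above 500 kb for 8 (15.7%), against 1.02%. Short genes were also among them: 7 (13.7%) span under 10 kb, against 19.0% of the expressed genes. The rule used no length. A second neighbouring pair, Nalcn and Fgf14 on chromosome 14, lies 347 kb apart with Itgbl1 between. Itgbl1, which encodes a secreted protein with integrin-like repeats, was at 5.23, 9.56 and 6.52 CPM in KO, 0, 0.643 and 0 CPM in E13 Het and 0 at E9. Of the 51 genes, 13 overlap another counted gene, and the doubt raised for Ppp3r2 touches them to differing degrees. The genes that overlap Dpp6 and Tmprss4 had no count in any library. Snd1, which overlaps Lrrc4, had means of 373 CPM in KO and 363 CPM in E13 Het epidermis.

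**Figure D3:**
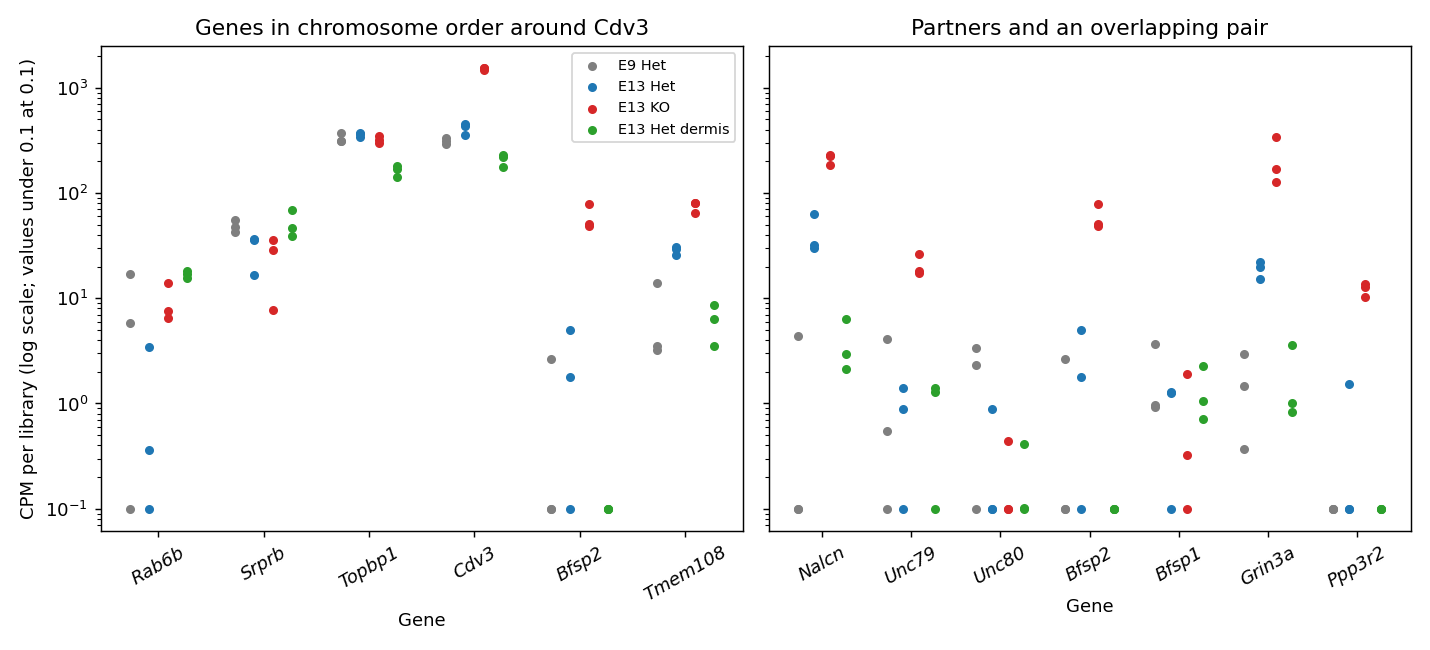
CPM of single libraries (y axis, log scale, values under 0.1 drawn at 0.1) for genes (x axis) in order along chromosome 9 around Cdv3, left, and for partners and an overlapping pair, right; colours mark the 4 groups. In KO, in red, Cdv3, Bfsp2 and Tmem108 lie above every other library while Topbp1 does not, and Unc80 and Bfsp1 stay at or under 2 CPM beside Nalcn, Unc79 and Bfsp2.

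The products these genes are known to work with, and their family members, were counted from 2 lists drawn up after the 51 genes were seen. The tests came from 1 edgeR quasi-likelihood fit of the 9 epidermal libraries over 13052 genes, with Benjamini-Hochberg adjusted p. Of 63 partner genes, 48 were tested between KO and E13 Het epidermis and 1 was called higher, against 0.835% of all genes tested; none was called lower, against 1.36%. The partner called was Ptprd, a receptor phosphatase that binds Slitrk proteins. It was at 254, 284 and 327 CPM in KO and 131, 159 and 135 CPM in E13 Het, a log2 fold change of 0.96 ± 0.17 (edgeR adjusted p 0.00616). Without the 2 libraries with fewest genes, no partner was called. The median log2 fold change of the tested partners was 0.22, against 0.03 for all genes. Of 51 family genes, 48 were tested, 1 was called higher and none lower, with a median of 0.30. The gene called was Adcy1, at 233, 159 and 194 CPM in KO and 94.1, 44.0 and 99.9 CPM in E13 Het, a log2 fold change of 1.25 ± 0.30 (edgeR adjusted p 0.0469). No family gene was called once any KO library, E13 Het replicate 1 or E9 replicate 4 was left out. Beside Mmp16, Mmp14 had means of 239 and 168 CPM in KO and E13 Het, and beside Dach2, Dach1 had 66.1 and 47.7 CPM. Neither passed the test.

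For the 51 genes themselves the same fit called 13 higher in KO than in E13 Het epidermis, where 0.835% of all genes were called higher, and 33 higher in KO than in E9 epidermis, where 4.62% were. None was called lower in the latter, where 3.05% of all genes were. Both contrasts chose the genes and share the KO libraries, so nothing is read from these counts.

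None of the 51 genes belongs to any of the 17 marker and pathway lists. These hold 324 genes, against 23432 symbols in the files, so little can be read from this. By summed CPM, some lists of epidermal and other cell types stood apart between KO and E13 Het epidermis, and others overlapped. The 20 simple epithelium genes summed to 4335 to 5669 CPM in KO and 1602 to 4181 CPM in E13 Het. Among 20 tested, Epcam and Prom1, both membrane proteins of simple epithelia, were called higher, against 0.835% of all genes. The 18 basal epidermis genes summed to 3212 to 3553 CPM in KO and 8930 to 9761 CPM in E13 Het. Of 18 tested, 9 were called lower, against 1.36% of all genes. Krt5, Itgb4 and the targeted gene Trp63, whose fall is set by the design, were among them.

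The 20 neuron and neural tube genes summed to 351 to 459 CPM in KO, 118 to 214 CPM in E13 Het and 304 to 319 CPM in E9 epidermis. Of 13 tested, 12 had a positive log2 fold change, with a median of 1.60, against 0.03 for all genes. Only 1 of the 13, Map2, which encodes a microtubule-associated protein of dendrites, was called higher in KO than in E13 Het, against 0.835% of all genes. Dcx, a microtubule protein of young neurons, was at 9.16, 8.53 and 10.4 CPM in KO and 0, 2.31 and 1.97 CPM in E13 Het, and Syt1, the calcium sensor of synaptic vesicles, at 14.2, 13.5 and 16.3 CPM in KO and 9.61, 3.86 and 0.716 CPM in E13 Het. The neurofilament gene Nefl was at 19.95, 20.01 and 6.22 CPM in KO and 0, 1.16 and 3.40 CPM in E13 Het, and Nefm at 8.99, 10.6 and 44.2 CPM in KO and 0, 2.70 and 0 CPM in E13 Het. None of these 4 genes passed the test. Some other genes of the list overlapped between the groups. Tubb3 was at 6.87, 6.03 and 0 CPM in KO and 0, 5.01 and 0.537 CPM in E13 Het. Stmn2 was at 8.34, 5.74 and 0 CPM and at 0, 3.73 and 0.179 CPM. Nes, at 140, 137 and 103 CPM in KO and 67.0, 130 and 77.8 CPM in E13 Het, weighs heavily in the sum. So does Ncam1, at 80.0, 101 and 119 CPM and at 39.7, 39.9 and 107 CPM. The neurogenic factors Neurod1, Neurog1 and Neurog2 had no count in any KO library, and Snap25, a neuronal synapse gene, had 1.

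The 15 neural crest, melanocyte and glia genes summed to 284 to 308 CPM in KO and 146 to 225 CPM in E13 Het, and none of 6 tested was called. Erbb3 gave most of each sum, at 271, 237 and 284 CPM in KO and 156, 121 and 192 CPM in E13 Het. Sox10, by contrast, was at 0, 2.65 and 0 CPM in KO and 0, 0.900 and 0 CPM in E13 Het. The 20 dermal mesenchyme genes summed to 2196 to 3708 CPM in KO and 1413 to 2693 CPM in E13 Het, groups that overlap, with none of 18 tested called. Of these 18, 13 had a positive log2 fold change, with a median of 0.46. Single genes differed: Col3a1 was at 640, 1013 and 972 CPM in KO and 84.8, 395 and 79.3 CPM in E13 Het. Postn, at 512, 520 and 577 CPM and at 555, 503 and 441 CPM, overlapped. The 16 endoderm and gut genes summed to 0.296 to 76.8 CPM in KO and 1.97 to 12.7 CPM in E13 Het, with a median log2 fold change of 2.67 over 7 tested and none called. Without the 2 libraries with fewest genes, the ranges of the simple epithelium and dermal lists were the same. In that order for KO and E13 Het, the sums were 3212 to 3497 and 8930 to 9016 CPM for basal epidermis, 373 to 459 and 211 to 214 CPM for neuron and neural tube, 284 to 291 and 146 to 225 CPM for neural crest, and 21.9 to 76.8 and 1.97 to 12.7 CPM for endoderm and gut. The part of such cells in the level of the 51 genes was not tested.

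The rule did not compare E13 Het with E9 Het epidermis, since both groups entered only as upper limits. It did ask for E13 KO above E9, so genes that rise with age in both genotypes could pass more readily. The shares over all genes are therefore not a neutral expectation for this contrast, and the values are given as a description. 7 of the 51 genes were called higher at E13, against 4.77% of all genes tested, and none was called lower, against 2.53%. A further 12 had an unadjusted p under 0.05. In 41 genes the log2 fold change was positive and in 10 negative, while 49.9% of all genes were positive. The median was 0.92, against -0.0019 for all genes. With the genes that had no count at E9 set to 3 counts over that group, and Fam43b left out, the median was 0.90. In 14 genes every E13 Het library stood above every E9 library, against 14.8% of all genes, and in none was every E13 library lower, against 14.0%. Without the 2 libraries with fewest genes, 44 were positive with a median of 1.34, and in 23 both E13 Het libraries stood above every E9 library, against 21.7% of all genes.

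Of the 7, 4 kept their call whichever of the 6 libraries was left out, and 3 of these are described here. Cdh6 rose from 7.25, 3.50 and 7.77 to 62.0, 19.3 and 46.7 CPM, or 2.78 ± 0.41 (edgeR adjusted p 0.000867). The 2 groups do not overlap. Cacna1e rose from 4.01, 6.81 and 8.98 to 22.3, 21.5 and 56.2 CPM, or 2.36 ± 0.41 (edgeR adjusted p 0.00301). Ntng1 rose from 2.01, 8.28 and 12.6 to 36.9, 42.6 and 34.7 CPM, or 2.33 ± 0.48 (edgeR adjusted p 0.00725). A calcium channel, a cadherin and a netrin-like protein thus stood higher in E13 than in E9 Het epidermis.

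The other three calls depended on single libraries. Tmem108 rose from 3.24, 3.50 and 14.1 to 30.6, 29.6 and 25.9 CPM, or 2.07 ± 0.50 (edgeR adjusted p 0.0205). The call was lost without E9 replicate 1 or 2, with adjusted p up to 0.0908. Slco3a1 rose from 5.86, 6.07 and 12.6 to 20.5, 23.1 and 29.5 CPM, or 1.59 ± 0.39 (edgeR adjusted p 0.0215). It was lost without E9 replicate 1 or 2 or E13 Het replicate 3, with adjusted p up to 0.112. Nalcn rose from 0, 4.42 and 0 to 62.7, 30.0 and 32.0 CPM, or 4.74 ± 0.96 (edgeR adjusted p 0.022), a value that rests on 1 E9 library with counts. It was lost without any 1 of the E13 Het libraries, with adjusted p up to 0.057. Pcdh9, at 1.91 ± 0.51, missed the threshold with an adjusted p of 0.0504. At E13 Het, Lrrc4 was at least 18.2-fold, Fstl5 at least 8.33-fold, Fam135b at least 5.86-fold and Ppp3r2 at least 3.70-fold higher than 3 counts over the E9 group, and none of these was called. Cdv3, Limch1 and Med12l had log2 fold changes of 0.41 ± 0.13, 0.02 ± 0.28 and 0.01 ± 0.22, none called.

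**Figure D4:**
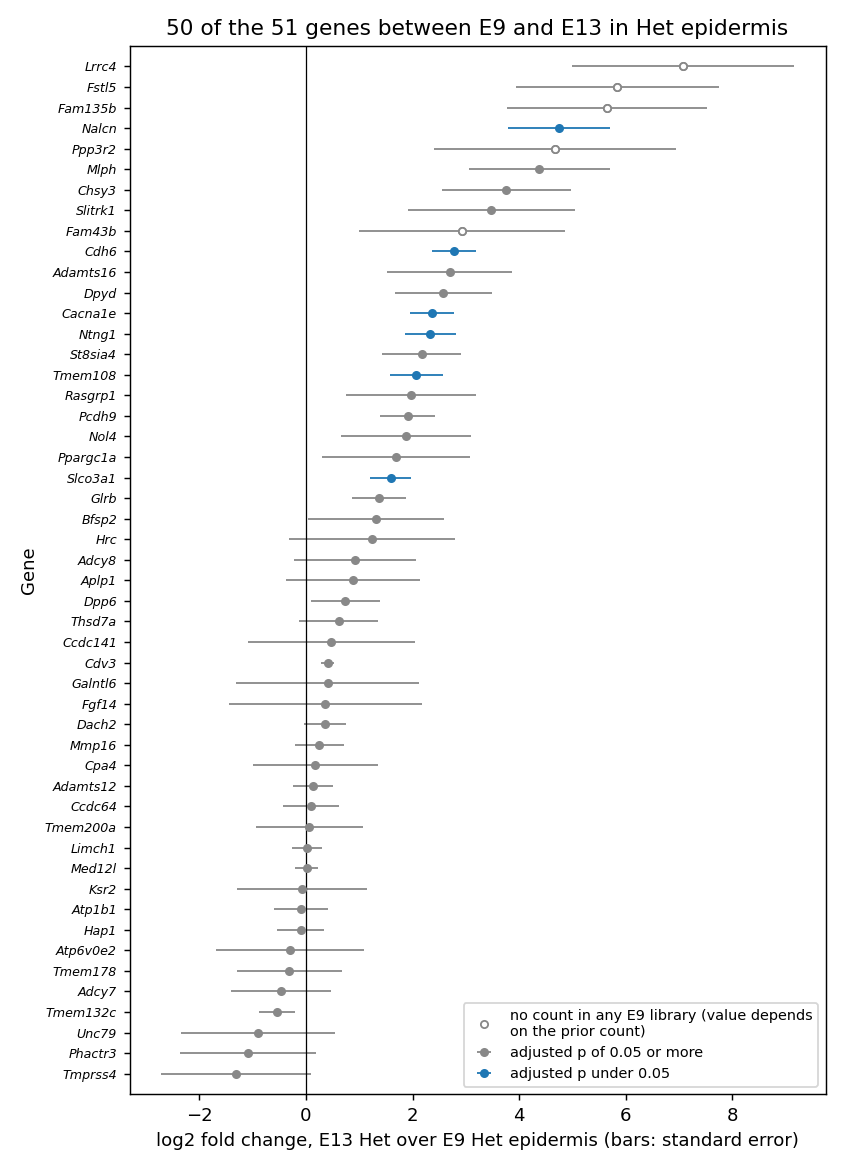
Log2 fold change of 50 of the 51 genes (y axis) between E13 and E9 Het epidermis (x axis, bars are standard errors from edgeR's test), with called genes in blue. Open circles mark the 5 genes with no count at E9, whose plotted value depends on the prior count; 40 of the 50 points lie right of 0.

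Marker lists also differed between these ages. Dermal mesenchyme genes summed to 455 to 594 CPM at E9 and 1413 to 2693 CPM at E13, neuron and neural tube genes to 304 to 319 CPM and 118 to 214 CPM, and skeletal muscle genes to 45.3 to 320.2 CPM and 0.253 to 17.2 CPM. Single genes of the lists differed in this. Postn was at 21.0, 15.5 and 15.8 CPM at E9 and 555, 503 and 441 CPM at E13. Col3a1 was at 17.3, 13.8 and 35.7 CPM and at 84.8, 395 and 79.3 CPM. Pdgfra, at 50.3, 21.2 and 27.2 CPM and at 28.6, 58.1 and 11.5 CPM, overlapped. The muscle gene Ttn was at 182 CPM in E9 replicate 4, against 36.1 and 27.2 CPM in E9 replicates 1 and 2. The part of these lists in the 7 calls was not tested. Without the 2 libraries with fewest genes, 10 of the 51 genes were called.

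Dermal libraries were set beside the epidermal ones as levels only, since tissue and RNA selection coincide: dermal RNA was selected with oligo(dT) and epidermal RNA was depleted of ribosomal RNA, so the 2 cannot be told apart. 12 of the 51 genes (23.5%) had at least 10 CPM in every dermal library, against 83.6% of genes with at least 10 CPM in every KO library. 45 (88.2%) were below the lowest KO library in every dermal library, against 48.6%. Tmem132c was the one gene above KO in every dermal library, at 702, 408 and 479 CPM. Adamts12, at 175, 60.6 and 110.4 CPM, Mmp16, at 81.6, 43.1 and 74.8 CPM, Tmem200a and Aplp1 overlapped the KO range, as did 1 further gene. Thsd7a, at 92.7, 84.7 and 81.3 CPM, lay just below it with these totals. Rn45s, a ribosomal RNA gene, took 11.2%, 30.7% and 19.1% of the dermal totals. In the KO libraries it took 4.14%, 3.26% and 2.90%, so CPM of other genes are lowered more in dermis. The placements against KO were not recomputed without Rn45s.

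At the other end, 12 genes (23.5%) were under 1 CPM in every dermal library, against 2.05%. 7 had no count there: Bfsp2, Fstl5, Fam135b, Tmprss4, Ksr2, Fam43b and Ppp3r2. A count of 0 allows up to 0.152, 0.177 and 0.0899 CPM in dermal replicates 1, 2 and 3, taking 3 counts as the limit. Channels were low: Cacna1e was at 3.64, 0.354 and 4.04 CPM and Nalcn at 6.32, 2.13 and 2.94 CPM in dermis. Dach2 was at 1.72, 1.24 and 0 CPM and Limch1 at 26.3, 7.86 and 18.9 CPM. Cdh6 was at 65.6, 25.8 and 40.6 CPM, overlapping its E13 Het epidermal libraries. Pdgfra, the gene of the sort marker, was at 443 to 887 CPM in dermis and 37.1 to 97.8 CPM in KO epidermis.

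**Figure D5:**
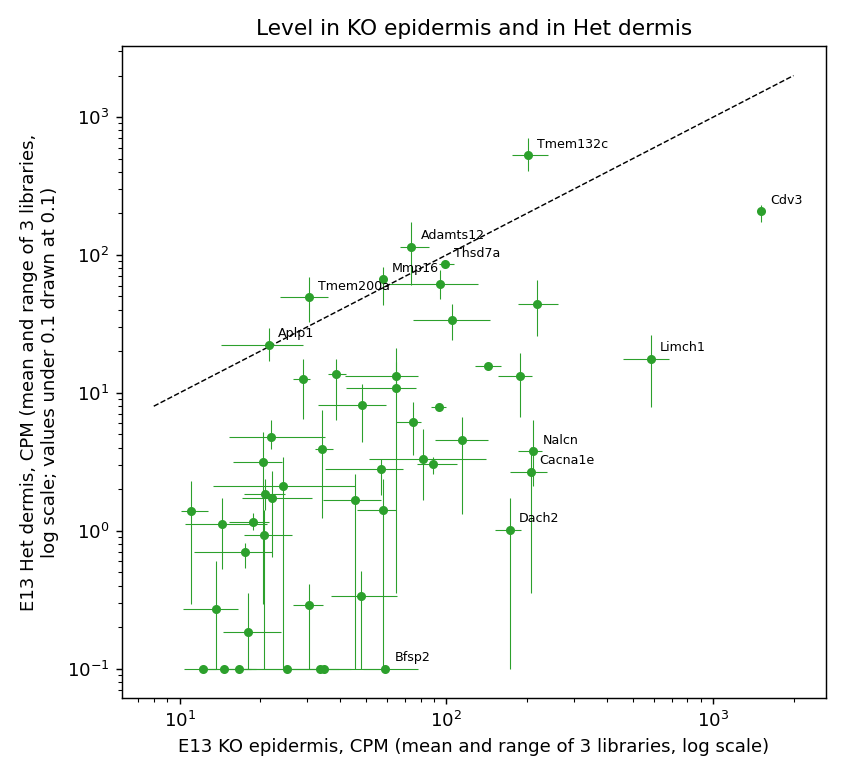
Mean level of each of the 51 genes in E13 KO epidermis (x axis) and E13 Het dermis (y axis), both in CPM on log scales, with bars for the range of 3 libraries and a dashed line of equal values. Tmem132c lies above the line, Adamts12, Mmp16, Tmem200a and Aplp1 near it, and 45 genes have every dermal library below the lowest KO library.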

How the data were processed

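The deposited files hold, per library, whole-number counts per gene symbol, which the authors made with tools that the submitters' processing notes name as TopHat2, Bowtie2 and HTSeq on build mm10, without roles or versions. Their strand setting was not given in the sources used here. ATAC and ChIP samples were not analysed here. Summary lines (48.8% to 63.8% of entries in epidermal files, 20.2% to 21.6% in dermal ones) were left out, and CPM are counts over the remaining total.

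The 51 genes, the role groups, the marker and pathway lists and the tests were chosen with earlier results of these data known, and the role groups and the partner and family lists after the 51 genes were seen. Tests came from edgeR 4.0.16 in R 4.3.3 (filterByExpr, TMM, robust quasi-likelihood F test, all 9 epidermal libraries, 6 residual degrees of freedom, common biological coefficient of variation 0.571), with Benjamini-Hochberg adjusted p under 0.05 over 13052 genes. Standard errors were taken back from F, by dividing the log2 fold change by its square root. The procedure was tested on simulated data. Replicates differed by more than sampling noise (15.4 to 227 chi-square units per degree of freedom).

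Genes named were the 10 of highest mean KO CPM, the 10 of largest ratio, those called between E13 Het and E9, the 10 highest in dermis, those next to a limit and up to 4 per role; the remaining members, partners and family genes were named after their values were seen. Alternatives were DESeq2 1.42.0, limma 3.58.1 voom, other scaling, filters and limits, the compared groups alone, each library left out and a replicate block. Positions and promoters are from RefSeq (GRCm38.p6); all 51 symbols matched, 1 of them by a synonym. Some genes are not reported here by name, though counts over the 51 include them.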

Additional observations from a re-analysis of the deposited data

How the results depend on the processing

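The number of genes that met the rule fell from 51 to 25 when summary lines were counted in the totals, and to 44 with TMM-scaled totals and 49 without Rn45s. It was 126 at 1.5 times, 25 at 3 times, 67 at 5 CPM and 33 at 20 CPM. Leaving out 1 library can only add genes, and gave 52 to 88. Without the libraries of fewest genes, a choice made after seeing the data, 102 genes met it, the 51 among them. Of the 51, 7 were called in E13 Het against E9. With DESeq2 17 were called, with the 2 groups alone 4, and with 1 library left out 5 to 11, the highest without E13 Het replicate 1. The counts against KO moved too: for KO against E13 Het they were 13, 21 with the 2 groups alone, 32 with DESeq2, 40 with limma voom and 11 to 17 with 1 library left out. For KO against E9 they were 33, and 24 to 43 with 1 library left out. The dermal count was 12, and 12 to 17 with 1 dermal library left out.

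Deviations of same-numbered KO and E13 Het libraries from their group means had r from -0.053 to 0.23, over 0.1 in 1 of 3 pairs. The 0.23 was that of the libraries numbered 2. With 3 libraries per group this cannot settle whether the numbers pair the samples, and the main fit used no pairing. With the replicate number as a block, 6 genes were called in E13 Het against E9, 13 in KO against E13 Het and 22 in KO against E9. Over 29 genes, 479 log2 fold changes of E13 Het against E9 under the alternatives kept their side of the threshold, 18 lost a call and 13 gained one. None of the 7 called genes changed direction under these alternatives, but 21 uncalled genes among the 51 did under at least 1, Tmprss4, Unc79 and Ccdc141 among them, and none was called in the new direction. The cause of these differences was not tested. Depth limits the lowest levels: 3 counts correspond to 0.386 to 0.889 CPM in the epidermal libraries.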

Other observations

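Genes of the same families with a lower mean in KO than in E13 Het epidermis were seen too, none of them called by edgeR's quasi-likelihood test. Beside St8sia4, St8sia1 and St8sia6, which also add sialic acid, were at 0, 1.18 and 0 and 1.31, 2.65 and 0 CPM in KO. In E13 Het epidermis they were at 10.1, 0.771 and 53.5 and 35.2, 15.4 and 20.2 CPM. For St8sia1 the KO and E13 Het libraries overlapped, and its mean in E13 Het rests mainly on replicate 3. Beside Thsd7a, Thsd7b was at 18.6, 16.5 and 3.85 CPM in KO and 87.5, 63.9 and 63.5 CPM in E13 Het. Beside Cdh6, Cdh4 was at 0.491, 4.27 and 0 and 29.9, 26.5 and 12.9 CPM, with 0.926, 6.26 and 2.67 CPM at E9. These genes were chosen after their values were seen.

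Among the 8 genes dropped by symbol, Kcnt2, a sodium-activated potassium channel, was at 59.0, 91.4 and 124 CPM in KO and 0, 1.80 and 0 CPM in E13 Het. BC030500, which overlaps the start of Galntl6 on the other strand, had a mean of 5.36 CPM in KO and no count in any Het epidermal library.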
